A study of Homo sapiens with 4 samples.

Results

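The 39 genes described here belong to the unfolded protein response and the integrated stress response: sensors of endoplasmic reticulum (ER) stress, the transcription factors they act through, ER chaperones and folding enzymes, genes of ER-associated degradation, and targets of the transcription factor ATF4, which include amino acid and single-carbon metabolism genes. They were chosen by name, with earlier results of these data known, and all 39 were found among the 26255 gene symbols of the deposited table. The study, by its title, concerns TGF-β signaling from fibroblasts and the histology of lung adenocarcinoma. The RNA came from A549, a long-established cell line from a human lung adenocarcinoma, in 4 libraries with 1 library per group. The solid tumor and the acinar tumor libraries were made from A549 cells cut by laser microdissection out of solid-type and acinar-type areas of xenografts in immunodeficient mice. The other libraries were made from GFP-labelled A549 cells sorted from 3D colonies, grown alone (single culture) or with cancer-associated fibroblasts (CAFs), the fibroblasts that surround tumor cells (mix culture, so read because growth without CAFs is the only other condition named). All 4 groups are the same cell line, no genotype, drug or time is given for any of them, and the sources used here do not say whether tumors or animals were pooled, how old the mice were or where the CAFs came from.

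Proteins that enter the secretory pathway fold in the ER with the help of chaperones. When unfolded protein builds up, 3 membrane sensors respond: IRE1 (gene ERN1) splices the XBP1 transcript into the form that encodes an active factor, ATF6 is cut to release a transcription factor, and PERK (EIF2AK3) phosphorylates the initiation factor eIF2 alpha. That phosphorylation, which other kinases also carry out when amino acids or heme run short, lowers general translation but favours translation of ATF4, whose targets handle amino acid supply, redox balance and cell fate. CREB3L1 and CREB3L2 are relatives of ATF6 that also sit in the ER membrane and serve secretory and matrix-producing cells. ATF4 is controlled in large part through translation and XBP1 through splicing, and gene-level RNA values report neither step.

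Values are given as scaled counts, which are the deposited gene-level values divided by 1 constant for all libraries. They are not divided by gene length, so levels are compared between libraries for the same gene and never between genes. The estimated depth was 7265471 fragments in the solid tumor, 6632979 fragments in the acinar tumor, 10965219 fragments in the single culture, with 12184276 for the mix culture. Each difference is between single libraries and has no replicates behind it, so no p-values are given. The folds of single genes are plain ratios of scaled counts, and the range after a fold is its 95% exact conditional binomial interval (Clopper-Pearson), given where both libraries had whole numbers of fragments. Such intervals cover counting error only. A549 and epithelial markers were present in every library, KRT8 at 4061, 4507, 2451 and 2543 and AKR1B10 at 1734, 1790.0, 1831 and 1380.1 scaled counts in the solid tumor, acinar tumor, single culture and mix culture (the order of every list of 4 values below). Of 12 fibroblast markers, 8 were below 1 in each library and POSTN was at 0 in all 4. They summed to 59.9, 96.1, 44.9 and 47.2 scaled counts, and to 40.3, 40.8, 44.9 and 47.1 without LUM, which was at 19.6, 55.4, 0 and 0.0805. LUM and FAP (0.420, 2.17, 0 and 0) were past 2-fold higher in the acinar than in the solid tumor. The 8 leukocyte markers summed to 236, 142, 49.0 and 43.4, mostly CD68 (175, 113, 29.5 and 26.8), LYZ (49.4, 23.9, 3.02 and 1.85) and CD14 (9.65, 2.64, 15.4 and 13.4), while CD163, CSF1R, TYROBP and CD3E were below 1 in all 4. LYZ and CD14 were past 2-fold lower in the acinar tumor. All 6 endothelial markers were below 1 in every library. In bulk RNA, fewer cells of a type and less RNA per cell cannot be told apart, and fragments of mouse host cells assigned to human genes were not tested for.

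Promoter sequence is shown for 5 members because groups of these genes shared a direction below and because stress-response elements in their promoters are well known. The windows are RefSeq's (GRCh38.p14, 250 bases before to 50 after the start site), read 5′ to 3′ on the gene's own strand, and 37 of the 39 genes had at least 1 window (PDIA3 and SHMT2 did not). Capitals mark exact matches on either strand to the ER stress element ERSE (CCAAT, 9 bases of any kind, CCACG), to ERSE-II (ATTGG, 1 base of any kind, CCACG), to the unfolded protein response element UPRE (TGACGTGG) or to the C/EBP-ATF element (TGATGNAA). ERSE-II was added to the search after the first matches were seen. HSPA5 (chr9:125241294-125241593, minus strand), HSP90B1 (chr12:103930160-103930459, plus strand) and XBP1 (chr22:28800520-28800819, minus strand) are shown for ERSE, HERPUD1 (chr16:56931892-56932191, plus strand) for ERSE-II together with a C/EBP-ATF element, and ASNS (chr7:97872359-97872658, minus strand) for a C/EBP-ATF element.
HSPA5: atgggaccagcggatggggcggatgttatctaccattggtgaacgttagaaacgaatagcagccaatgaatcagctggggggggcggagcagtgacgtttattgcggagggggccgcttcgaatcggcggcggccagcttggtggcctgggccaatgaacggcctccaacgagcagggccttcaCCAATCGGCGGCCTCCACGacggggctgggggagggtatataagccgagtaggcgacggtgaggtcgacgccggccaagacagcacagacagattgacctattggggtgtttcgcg
HSP90B1: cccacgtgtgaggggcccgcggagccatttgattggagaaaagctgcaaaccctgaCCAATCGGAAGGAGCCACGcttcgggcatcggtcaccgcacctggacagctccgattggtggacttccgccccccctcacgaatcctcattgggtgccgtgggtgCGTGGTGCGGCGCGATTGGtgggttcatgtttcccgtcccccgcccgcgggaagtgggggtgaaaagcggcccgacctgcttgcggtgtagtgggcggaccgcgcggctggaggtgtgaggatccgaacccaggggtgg
XBP1: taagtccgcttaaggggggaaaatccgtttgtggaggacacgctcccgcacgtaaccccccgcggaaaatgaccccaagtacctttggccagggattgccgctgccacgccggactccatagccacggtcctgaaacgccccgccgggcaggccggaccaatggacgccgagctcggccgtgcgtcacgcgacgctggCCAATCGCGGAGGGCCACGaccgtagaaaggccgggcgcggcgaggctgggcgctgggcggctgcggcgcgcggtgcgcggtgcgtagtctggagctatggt
HERPUD1: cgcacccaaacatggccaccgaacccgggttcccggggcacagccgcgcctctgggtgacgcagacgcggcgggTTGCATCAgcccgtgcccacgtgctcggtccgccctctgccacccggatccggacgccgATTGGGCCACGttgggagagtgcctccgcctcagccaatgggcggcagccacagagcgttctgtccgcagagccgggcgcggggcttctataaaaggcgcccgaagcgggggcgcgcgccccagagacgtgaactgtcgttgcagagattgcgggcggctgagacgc
ASNS: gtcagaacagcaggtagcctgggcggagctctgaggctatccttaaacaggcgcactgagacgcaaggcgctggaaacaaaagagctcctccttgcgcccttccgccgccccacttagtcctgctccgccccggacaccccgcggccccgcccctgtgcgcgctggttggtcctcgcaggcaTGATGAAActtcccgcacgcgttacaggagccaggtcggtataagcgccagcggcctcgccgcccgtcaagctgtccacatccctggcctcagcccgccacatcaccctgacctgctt

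ERSE was found in 6 of the 37 genes with a window: 5 of the 12 chaperone and folding genes with one (HSPA5, HSP90B1, PDIA6, CALR and CANX) and XBP1. HSP90B1 held ERSE at 2 places, on opposite strands. Over all 27305 gene symbols with a window, 0.0916% held ERSE. ERSE-II was in HYOU1 (at 2 places, 1 of them overlapping a UPRE match), SDF2L1 and HERPUD1, against 0.0696% of all genes, and HYOU1 was the only member with UPRE (0.927% of all genes). The C/EBP-ATF element was in ASNS, CHAC1, HERPUD1, SLC3A2 and CREB3L2, against 4.46% of all genes. In SLC3A2 and CREB3L2 the match lay after the start site and in only 1 of the gene's windows. Several of these elements were first defined in promoters of the same genes, so the matches are a description of the windows and not evidence of a factor at work. CREB3L1, ATF4 and DDIT3 held none of these letters in their windows, which says only that these exact patterns are not there.

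The comparison of acinar with solid tumor asks how A549 cells in gland-like areas differ from those in sheets. In the acinar tumor, the secretory transcription factor gene CREB3L1, most ER chaperone genes and the serine and folate enzyme genes were lower, while both subunits of the amino acid transporter LAT1 were higher. Of the 39 genes, 30 were lower and 9 higher on the log2(scaled count + 1) scale, with a median of -0.24. Over the 13979 genes at 1 scaled count or more in the solid or the acinar tumor, 49.2% were lower and the median was 0.01. CREB3L1 and PHGDH were past 2-fold lower (2 of 39, where 2.55% of all genes were) and no member was past 2-fold higher (1.98% of all genes). Among the 35 members with a counting interval, 21 were lower beyond counting error, where 16.7% of 12403 genes were, and 3 were higher, where 18.4% were. Intervals narrow as fragments rise, and the members were not matched with all genes for level, so these shares are not like for like. The acinar tumor was the lowest of the 4 libraries for 23 of the 39 genes, and for 25.3% of the 14561 genes at 1 scaled count or more in any library. Of the 4 leukocyte-list genes measured between the tumors, LYZ, CD14 and CD68 were lower in the acinar tumor too. PTPRC was not, at 1.40 against 1.26 scaled counts (acinar against solid, 9 fragments each). The part of these markers in the differences was not tested.

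The comparison of mix with single culture asks how A549 colonies grown with CAFs differ from those grown alone. CREB3L1 and XBP1 were lower in the mix culture, chaperone genes were slightly lower, and all amino acid and single-carbon genes were higher. Of the 39 genes, 24 were lower and 15 higher (median -0.12), against 48.0% lower among 13485 genes (median 0.01). CREB3L1 and XBP1 were past 2-fold lower (2 of 39, against 1.74% of all genes), and none was past 2-fold higher (0.682%). Of 34 members with a counting interval, 16 were lower beyond counting error (20.4% of 11804 genes) and 10 higher (23.4%). These shares too were not matched for level, and CALR was beyond counting error at only 1.03-fold. These comparisons share no library, and 22 of the 39 genes were lower in both the acinar tumor and the mix culture, compared with 26.0% of the 12903 genes measured in both.

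**Figure D1:**
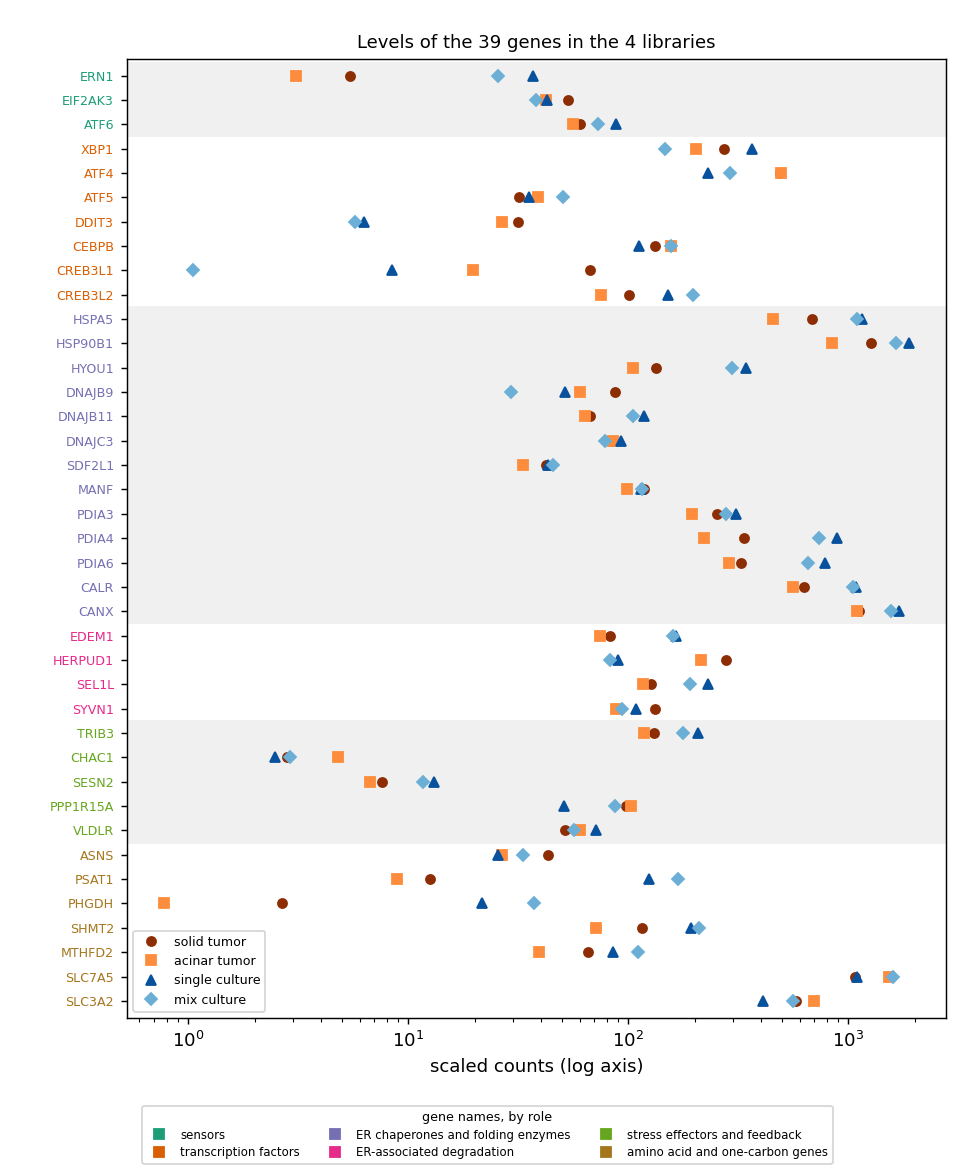
Scaled counts (log axis) of each of the 39 genes, 1 row per gene and 1 symbol per library, gene names coloured by role. For CREB3L1 the values run from 1.05 in the mix culture to 66.7 in the solid tumor, and in 11 of the 13 chaperone rows the acinar tumor (orange square) is the lowest of the 4. Levels of different genes are not on a common scale per length.

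Among the sensors, ERN1 was far lower in tumors than in cultures, at 5.45, 3.10, 37.0 and 25.5 scaled counts. The acinar value was 1.76-fold (1.001 to 3.18) lower than the solid one and the mix value 1.45-fold (1.25 to 1.68) lower than the single one, the first interval only just above 1. EIF2AK3, the PERK kinase gene, was at 53.3, 42.3, 42.8 and 37.8. It was 1.26-fold (1.07 to 1.48) lower in the acinar tumor, and the culture interval included no difference (1.13-fold, 0.995 to 1.29, lower in the mix culture). ATF6 was at 60.6, 56.3, 87.5 and 72.5. Its tumor interval included no difference (1.08-fold, 0.934 to 1.24, lower in the acinar tumor), and it was 1.21-fold (1.10 to 1.32) lower in the mix culture. All 3 sensors were thus on the lower side in both comparisons, none past 2-fold.

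CREB3L1 had the widest span of the transcription factors, with 66.7, 19.7, 8.44 and 1.05 scaled counts. It was 3.39-fold (2.78 to 4.15) lower in the acinar than in the solid tumor and 8.07-fold (4.50 to 15.7) lower in the mix than in the single culture. The mix value rests on 13 fragments and the single culture value on 95. CREB3L1 is also active in matrix-producing fibroblasts. Of 5 fibroblast markers measured between the tumors, 3 were higher in the acinar one, among them LUM and FAP (FAP at 14 against 3 fragments). The 2 lower ones were COL1A1 (30.7 against 32.3 scaled counts, acinar against solid) and COL3A1 (0.310 against 1.12, from 2 and 8 fragments). Between the cultures, 2 of 4 measured were higher in the mix culture and 2 lower. Higher were COL1A1 by 1.53-fold (1.29 to 1.82) and THY1 by 1.51-fold (0.766 to 3.08). Lower were ACTA2 by 1.61-fold, without an interval, and PDGFRA by 1.73-fold (0.849 to 3.67). The part of these markers in the differences of CREB3L1 was not tested. Its paralog CREB3L2 was at 101, 74.9, 152 and 197, lower in the acinar tumor (1.35-fold, 1.20 to 1.52) but higher in the mix culture (1.30-fold, 1.22 to 1.38). The 2 paralogs therefore went the same way between the tumors and opposite ways between the cultures.

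XBP1, the factor downstream of IRE1, was at 273, 204, 363 and 146 scaled counts, highest in the single culture and lowest in the mix culture. The mix culture was 2.48-fold (2.35 to 2.63) lower, and the acinar tumor 1.34-fold (1.25 to 1.44) lower. These values are for the gene, and spliced and unspliced XBP1 are not separated. ATF4 was at 489, 496, 229.6 and 289, with both tumors above both cultures. The tumors did not differ beyond counting error (1.01-fold, 0.965 to 1.06, higher in the acinar tumor), and the mix culture was 1.26-fold (1.20 to 1.32) higher. DDIT3, which encodes the pro-apoptotic factor CHOP, was at 31.6, 26.7, 6.31 and 5.72, high in both tumors and low in both cultures. Neither pair differed beyond counting error (1.19-fold, 0.968 to 1.45, lower in the acinar tumor and 1.10-fold, 0.783 to 1.56, lower in the mix culture).

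ATF5, an ATF4-related factor induced in mitochondrial and amino acid stress, was at 31.9, 38.96, 35.3 and 50.6. CEBPB, a partner of ATF4 at C/EBP-ATF elements and a mediator of acute-phase transcription, was at 132, 156, 111 and 157. Both were higher in the acinar tumor and in the mix culture, by 1.22-fold and 1.43-fold for ATF5 and by 1.18-fold and 1.41-fold for CEBPB. Their values were not whole fragments in every library, so no interval is given. The 7 transcription factors split, 3 higher and 4 lower in the acinar tumor and 4 higher and 3 lower in the mix culture.

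The 13 chaperone and folding genes were lower in the acinar tumor with 1 exception, and lower in the mix culture with 2. Their median log2 ratios were -0.33 and -0.17, and none was past 2-fold in either. Together they took 0.505%, 0.398%, 0.876% and 0.782% of the library's signal (solid, acinar, single, mix). HSP90B1, CANX, HSPA5 and CALR, with the most counts, weigh most in these shares. HSPA5, which encodes BiP, the main ER Hsp70 and the protein that holds the sensors inactive, was at 682, 452, 1156 and 1090.0 scaled counts. It was 1.51-fold (1.44 to 1.58) lower in the acinar tumor and 1.06-fold (1.04 to 1.09) lower in the mix culture. HSP90B1, encoding the ER Hsp90 GRP94, was at 1265, 843, 1874 and 1636, 1.50-fold (1.45 to 1.55) and 1.15-fold (1.12 to 1.17) lower. HYOU1, the nucleotide exchange factor of BiP, was at 133, 105, 341 and 296, 1.28-fold (1.16 to 1.41) and 1.15-fold (1.10 to 1.21) lower. In these 3 genes both cultures lay above both tumors, and the solid tumor lay between the acinar tumor and the cultures.

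The ER J-proteins, which hand substrates to BiP, were less uniform. DNAJB9, a target of spliced XBP1 that restrains IRE1, was at 86.7, 60.0, 51.7 and 29.2. Unlike most chaperones it was higher in both tumors than in the cultures, by only 1.16-fold at the nearest pair. It was 1.44-fold (1.27 to 1.64) lower in the acinar tumor and 1.77-fold (1.55 to 2.02) lower in the mix culture, the widest culture difference of the 13. DNAJB11 was at 66.7, 63.3, 118 and 105, its tumor interval including no difference (1.05-fold, 0.922 to 1.21, lower) and its culture difference being 1.13-fold (1.04 to 1.22) lower. DNAJC3, which inhibits the PERK kinase, was at 84.3, 85.4, 92.1 and 78.3 and is the exception between the tumors, with an interval that included no difference (1.01-fold, 0.901 to 1.14, higher in the acinar tumor). It was 1.18-fold (1.08 to 1.29) lower in the mix culture.

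SDF2L1, a component of the ER chaperone complex, was at 42.2, 33.3, 43.2 and 45.4, and MANF, a secreted protein retained by BiP, at 117, 98.9, 114 and 115. The acinar values were 1.27-fold (1.06 to 1.52) and 1.18-fold (1.07 to 1.32) lower. In the mix culture both intervals included no difference (1.05-fold, 0.930 to 1.19, and 1.003-fold, 0.930 to 1.08, higher). MANF was lower in the mix culture when libraries were scaled to equal totals, so it has no direction there.

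The disulfide isomerases, which form and rearrange disulfide bonds, were all lower in both comparisons. PDIA4 was at 334, 221, 885 and 733, 1.52-fold (1.42 to 1.62) lower in the acinar tumor and 1.21-fold (1.17 to 1.24) lower in the mix culture. PDIA6 was at 326, 286, 784 and 655, 1.14-fold and 1.20-fold lower, with no interval because its values were not all whole fragments. PDIA3 was at 252, 194, 308 and 277, 1.30-fold (1.21 to 1.40) and 1.11-fold (1.06 to 1.16) lower. Its values are uncertain, since the table also lists its pseudogene PDIA3P1 at 185, 140.3, 346 and 291 scaled counts and fragments of near-identical copies can be assigned to either.

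The lectin chaperones, which hold newly made glycoproteins, differed little between the tumors. CALR (calreticulin) was at 631, 561, 1083 and 1049, 1.13-fold (1.08 to 1.18) lower in the acinar tumor and 1.03-fold (1.01 to 1.06) lower in the mix culture. CANX (calnexin) was at 1113, 1089.8, 1689.7 and 1561, with a tumor interval that included no difference (1.02-fold, 0.989 to 1.05, lower) and a mix value 1.08-fold lower, without an interval.

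ER-associated degradation returns misfolded proteins to the cytosol for the proteasome, and its 4 genes were all on the lower side in both comparisons. HERPUD1, a membrane organiser of the complex, was at 277, 213, 89.4 and 82.2 scaled counts. It was 1.30-fold (1.21 to 1.39) lower in the acinar tumor, while the culture interval included no difference (1.09-fold, 0.996 to 1.19, lower). SEL1L, the adaptor of the ubiquitin ligase, was at 127, 117, 229.7 and 190.2, and EDEM1, which marks glycoproteins for disposal, at 82.2, 74.6, 164 and 159. SEL1L was 1.21-fold (1.14 to 1.28) lower in the mix culture, and the other 3 intervals of these 2 genes included no difference (1.08-fold, 0.984 to 1.20, for SEL1L between the tumors, 1.10-fold, 0.976 to 1.25, and 1.03-fold, 0.971 to 1.10, for EDEM1). SYVN1, the ubiquitin ligase HRD1 itself, was at 132, 87.7, 108 and 93.5, 1.50-fold and 1.16-fold lower without intervals. HERPUD1 stood apart from the other three in its order of libraries, with both tumors well above both cultures.

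Stress effector and feedback genes had no common direction. PPP1R15A, which encodes GADD34, the phosphatase subunit that reverses eIF2 alpha phosphorylation, was at 97.3, 103, 51.0 and 86.8. The single culture was low, and the mix culture was 1.70-fold (1.54 to 1.89) higher, which with PHGDH is among the 2 largest folds on the higher side in that comparison. Between the tumors it did not differ beyond counting error (1.06-fold, 0.948 to 1.18, higher in the acinar tumor). TRIB3, a pseudokinase that dampens ATF4 activity, was at 130.3, 118, 207 and 177, 1.11-fold (1.01 to 1.22) lower in the acinar tumor and 1.17-fold (1.10 to 1.24) lower in the mix culture. VLDLR, a lipoprotein receptor induced by ATF4, was at 51.3, 60.0, 71.5 and 56.4, 1.17-fold (1.01 to 1.35) higher in the acinar tumor and 1.27-fold (1.14 to 1.41) lower in the mix culture.

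CHAC1, which degrades glutathione, and SESN2, which restrains mTORC1 when leucine is short, were the lowest of this group in fragments. CHAC1 was at 2.80, 4.81, 2.49 and 2.90, from 20, 31, 28 and 36 fragments. SESN2 was at 7.55, 6.67, 13.1 and 11.6. All 4 intervals of these 2 genes included no difference, with CHAC1 1.72-fold (0.949 to 3.18) higher in the acinar tumor and 1.16-fold (0.691 to 1.98) higher in the mix culture, and SESN2 1.13-fold (0.745 to 1.73) and 1.13-fold (0.889 to 1.43) lower. A difference in CHAC1 was not detectable at this depth.

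The amino acid and single-carbon genes separated the 2 comparisons. The 4 enzymes of serine and folate metabolism and asparagine synthetase were lower in the acinar tumor and higher in the mix culture, each beyond counting error. Median log2 ratios of the 7 genes were -0.67 and 0.43. Among the 12903 genes measured in both comparisons, 22.7% were lower in the acinar tumor and higher in the mix culture. PHGDH, the first enzyme of serine synthesis, was at 2.66, 0.775, 21.6 and 37.0 scaled counts, 3.43-fold (1.24 to 11.7) lower in the acinar tumor and 1.71-fold (1.46 to 2.01) higher in the mix culture. Its acinar value rests on 5 fragments and its solid value on 19, and with a pseudocount of 5 it was no longer past 2-fold. PSAT1, the next enzyme, was at 12.6, 8.84, 124 and 169, 1.42-fold (1.01 to 2.02) lower and 1.35-fold (1.27 to 1.45) higher.

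SHMT2 and MTHFD2 carry the mitochondrial branch of folate metabolism. SHMT2 was at 116, 71.5, 192 and 209, 1.62-fold (1.44 to 1.82) lower in the acinar tumor and 1.09-fold (1.03 to 1.15) higher in the mix culture. MTHFD2 was at 65.3, 39.2, 85.1 and 111, 1.66-fold (1.43 to 1.95) lower and 1.30-fold (1.20 to 1.41) higher. ASNS, which makes asparagine, was at 42.9, 26.7, 25.5 and 33.3, 1.61-fold (1.33 to 1.95) lower and 1.31-fold (1.12 to 1.52) higher. ASNS was highest in the solid tumor, whereas the other 4 enzymes were highest in the mix culture.

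The 2 subunits of the LAT1 transporter, which exchanges large neutral amino acids, were the exception in the acinar tumor. SLC7A5, the light chain, was at 1075, 1525, 1097 and 1589 scaled counts, 1.42-fold (1.38 to 1.46) higher in the acinar tumor and 1.45-fold (1.42 to 1.48) higher in the mix culture. SLC3A2, the heavy chain, was at 575, 700.0, 408 and 557, 1.22-fold (1.17 to 1.27) and 1.36-fold (1.31 to 1.42) higher. Both subunits were thus higher in the same library of each pair.

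**Figure D2:**
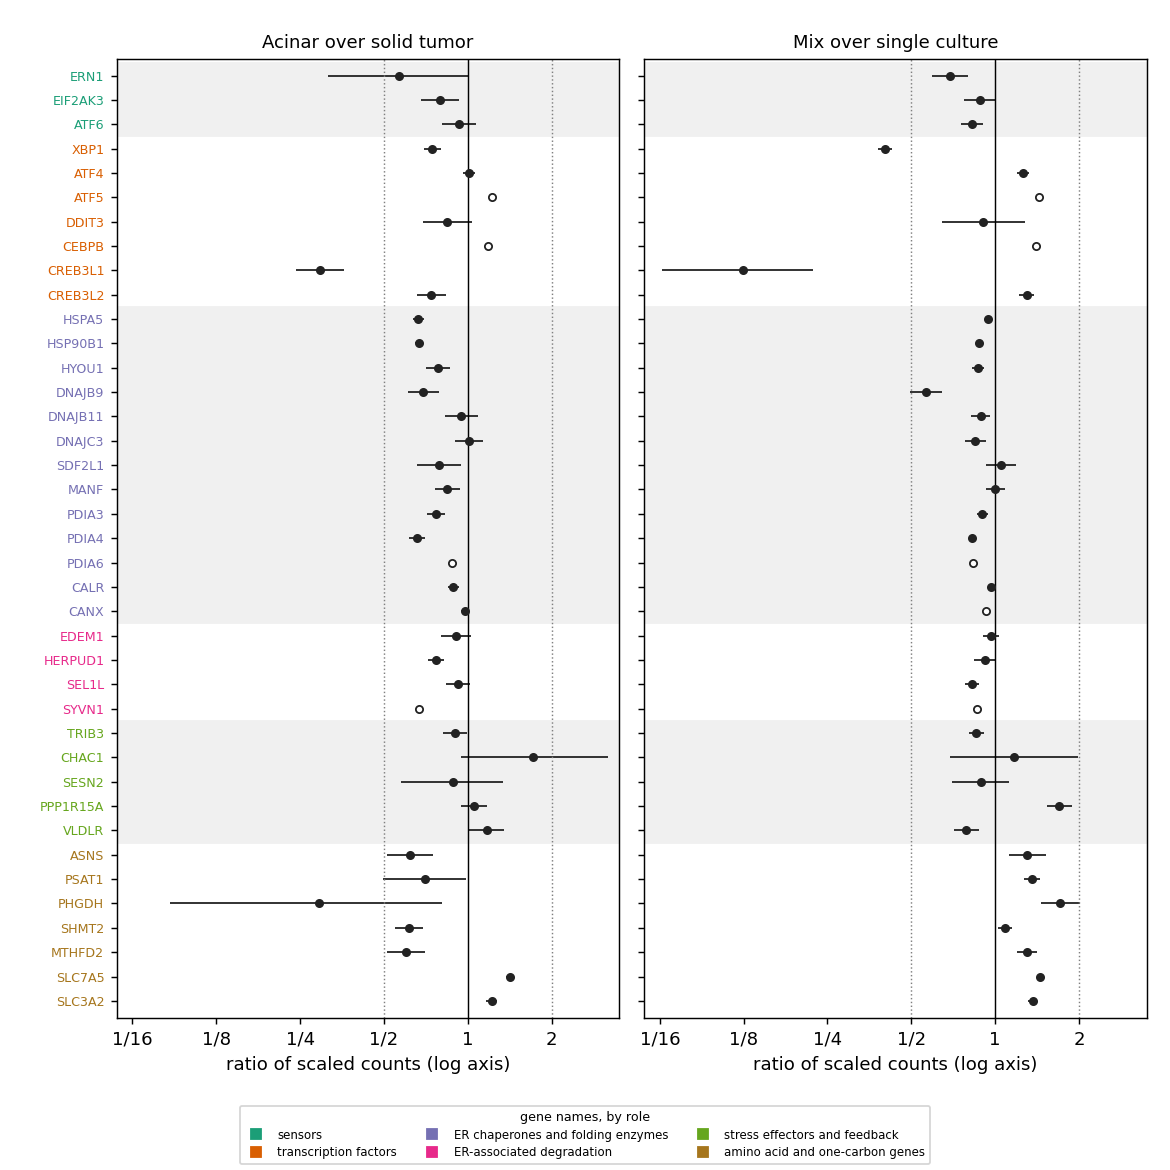
Ratio of scaled counts (log axis) of the acinar over the solid tumor (left) and of the mix over the single culture (right) for each of the 39 genes, with the 95% counting interval. Open circles have no interval because a value was not a whole number of fragments, and dotted lines mark 2-fold. CREB3L1 lies far to the left in both panels, and the rows from ASNS to MTHFD2 lie left of 1 between the tumors and right of 1 between the cultures.

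Other genes of the same pathways, listed by function but with earlier results of these data known, were examined beside the members. Of 46 other unfolded protein response genes (translocon, signal peptidase, ER oxidase, degradation and transport genes), 39 were lower and 7 higher in the acinar tumor (median -0.25), and 36 were lower and 10 higher in the mix culture (median -0.13). Over all genes, 49.2% were lower in the acinar tumor and 48.0% in the mix culture. None of the 46 was past 2-fold in either. Of 32 other integrated stress response genes, 30 were measured between the tumors, where 17 were lower and 13 higher. Past 2-fold lower were 4 of the 30, against 2.55% of all genes. These 4 were the stress-induced hormone gene STC2 (1.71 against 9.65 scaled counts), the chromatin-associated stress protein gene NUPR1 (0.775 against 3.36 scaled counts), the peptide hormone gene ADM2 (0.930 against 3.36 scaled counts) and DDIT4, an inhibitor of mTORC1 (349 against 708 scaled counts). NUPR1 and ADM2 had 5 and 6 fragments in the acinar tumor. In the cultures none of the 29 measured was past 2-fold, with 15 higher and 14 lower.

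Aminoacyl-tRNA synthetases, many of which are ATF4 targets, were split between the tumors (14 lower and 6 higher of 20, median -0.04) and mostly higher in the mix culture (18 of 20, median 0.17). For this list and the next, the all-gene shares were 50.8% higher in the acinar tumor and 52.0% higher in the mix culture. The heat shock list holds cytosolic chaperones and co-chaperones, the mitochondrial chaperonins HSPD1 and HSPE1, and the transcription factors HSF1 and HSF2. Most of its genes lay on the other side from the ER chaperones. In the acinar tumor 20 of 27 were higher (median 0.21) and in the mix culture 24 of 26 (median 0.22). None was past 2-fold on the log2(scaled count + 1) scale. As plain ratios, CRYAB was 2.08-fold (1.53 to 2.86) higher in the acinar tumor, from 122 against 65 fragments. The small heat shock protein gene HSPB1 was 1.96-fold (1.88 to 2.03) higher, at 587, 1149, 303 and 315 scaled counts. Of the 26 measured in both comparisons, 18 were higher in both, against 0 of the 13 ER chaperone and folding genes. Over all genes the share was 29.8%. Without HSPD1, HSPE1, HSF1 and HSF2, 16 of 22 heat shock genes were higher in both. With 1 library per group the difference between these lists was not tested.

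**Figure D3:**
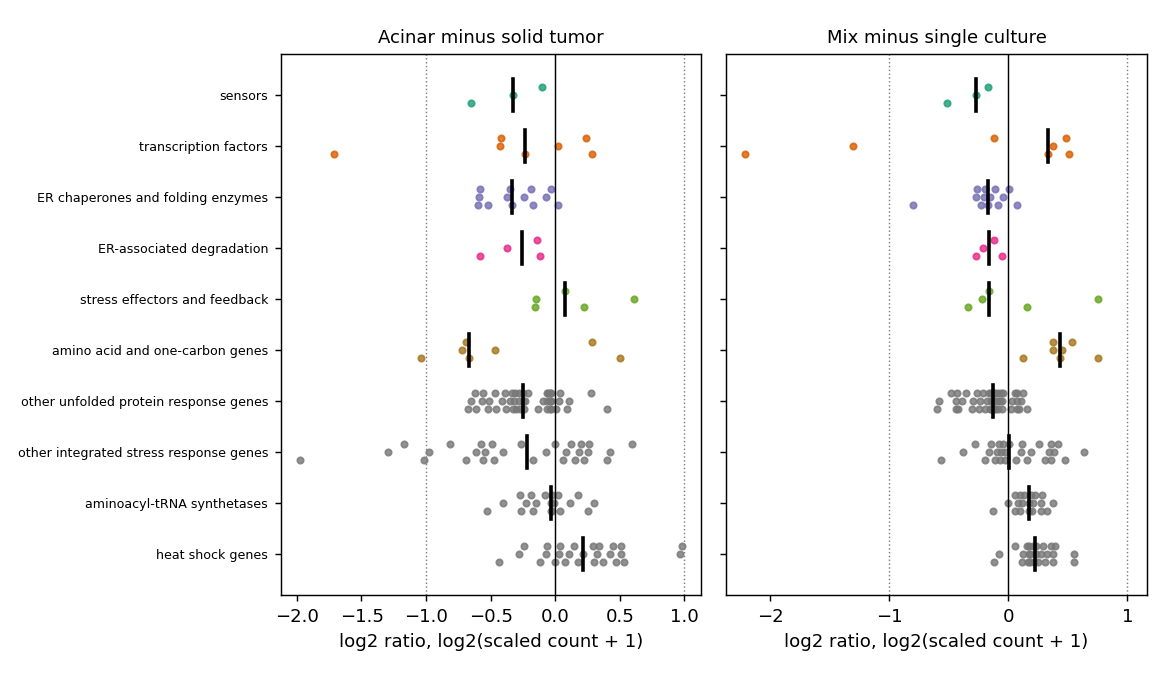
Log2 ratio on the log2(scaled count + 1) scale for each gene, grouped by role (coloured points, the 39 genes) and by pathway list (grey points), between the tumors (left) and the cultures (right). Black bars are medians and dotted lines mark 2-fold. ER chaperones and degradation genes lie mostly left of 0 and heat shock genes mostly right of 0 in both panels.

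Across all 4 libraries, the tumor libraries showed more DDIT3, HERPUD1 and CREB3L1 RNA than the cultures, and the cultures more ERN1, serine synthesis and ER folding RNA. Tumor and culture libraries differ in growth site, in host or neighbouring cells and in isolation by microdissection or by sorting, and these cannot be told apart. Both tumors lay above both cultures for 7 of the 39 genes, where 39.8% of 14561 genes did, and below for 21, where 38.7% did. In 11 genes the groups overlapped. Counting genes whose nearest tumor and culture values were at least 2-fold apart, 3 of 39 were higher in tumors (9.67% of all genes) and 6 lower (8.22%).

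The 3 higher ones were DDIT3, whose lower tumor value was 4.23-fold the higher culture value, HERPUD1 (2.39-fold) and CREB3L1 (2.33-fold). ATF4 itself was 1.69-fold apart. Of the 8 epithelial and A549 markers, 5 were above both cultures in both tumors (39.8% of all genes were) and 3 overlapped. Among those above, KRT7 was at 2232, 3780.3, 473 and 899 and EPCAM at 20.3, 28.1, 2.31 and 2.09. The overlapping ones were CDH1 (199, 204, 201 and 120), AKR1B10 and ALDH1A1. Of the 4 leukocyte-list genes measured, 3 were above both cultures in both tumors, among them CD68 and LYZ. CD14 was below, at 9.65, 2.64, 15.4 and 13.4. The part of these markers in the differences was not tested.

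The 6 lower ones were PSAT1, whose lower culture value was 9.89-fold the higher tumor value, PHGDH (8.13-fold), ERN1 (4.68-fold), HYOU1 (2.22-fold), PDIA4 (2.19-fold) and PDIA6 (2.01-fold). With a pseudocount of 5, CREB3L1 and PDIA6 were no longer past 2-fold. Of the 13 chaperone and folding genes, 10 were lower in both tumors than in both cultures (38.7% of all genes were), SDF2L1 by only 1.02-fold. DNAJB9 was higher by only 1.16-fold (39.8% of all genes were higher), and DNAJC3 and MANF overlapped. For XBP1 the tumors lay between the 2 culture values, so no order of tumor and culture can be given.

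In the related lists, the same count of genes past 2-fold between the nearest tumor and culture values gave 5 higher and 13 lower in the tumors. The lists held 46, 31, 20 and 27 measured genes. Over all genes the shares were 9.67% higher and 8.22% lower. Of 46 other unfolded protein response genes, the translocon gene TRAM1 was higher, at 604, 797, 260.5 and 235 scaled counts. The lower ones were UGGT1, which checks glycoprotein folding (2.81-fold), MBTPS2, a protease that cuts ATF6 (2.56-fold), and the ER membrane gene WFS1 (2.37-fold). Both tumors were above both cultures for 18 of the 46 (39.8% of all genes) and below for 15 (38.7%).

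Of the other integrated stress response genes, ATF3, a stress-induced factor that acts beside CHOP, was at 22.0, 26.5, 1.33 and 1.29 scaled counts, and the pro-apoptotic gene BBC3 was at 46.3, 70.5, 13.7 and 11.1, both higher in the tumors. STC2 was at 9.65, 1.71, 108 and 97.2, both tumor values lying far under both culture values. The eIF2 alpha kinase gene EIF2AK2 (PKR), the serine synthesis gene PSPH and the eIF2 alpha phosphatase gene PPP1R15B were also higher in the cultures, by 2.83-fold, 2.26-fold and 2.24-fold. In all, 14 of the 31 measured were below both cultures in both tumors and 8 above. Over all genes, 38.7% were below and 39.8% above, which holds for the next 2 lists too. Of the 20 aminoacyl-tRNA synthetases, 18 were below, with TARS (2.29-fold), VARS (2.11-fold) and YARS (2.10-fold) past 2-fold. Of the 27 heat shock genes, 17 were below and 8 above. HSPA4 (3.07-fold), STIP1 (2.57-fold) and FKBP4 (2.28-fold) were past 2-fold lower, and CRYAB, at 9.09, 18.9, 0 and 0.322, and DNAJB2, at 107, 102, 36.2 and 34.2, past 2-fold higher in the tumors.

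**Figure D4:**
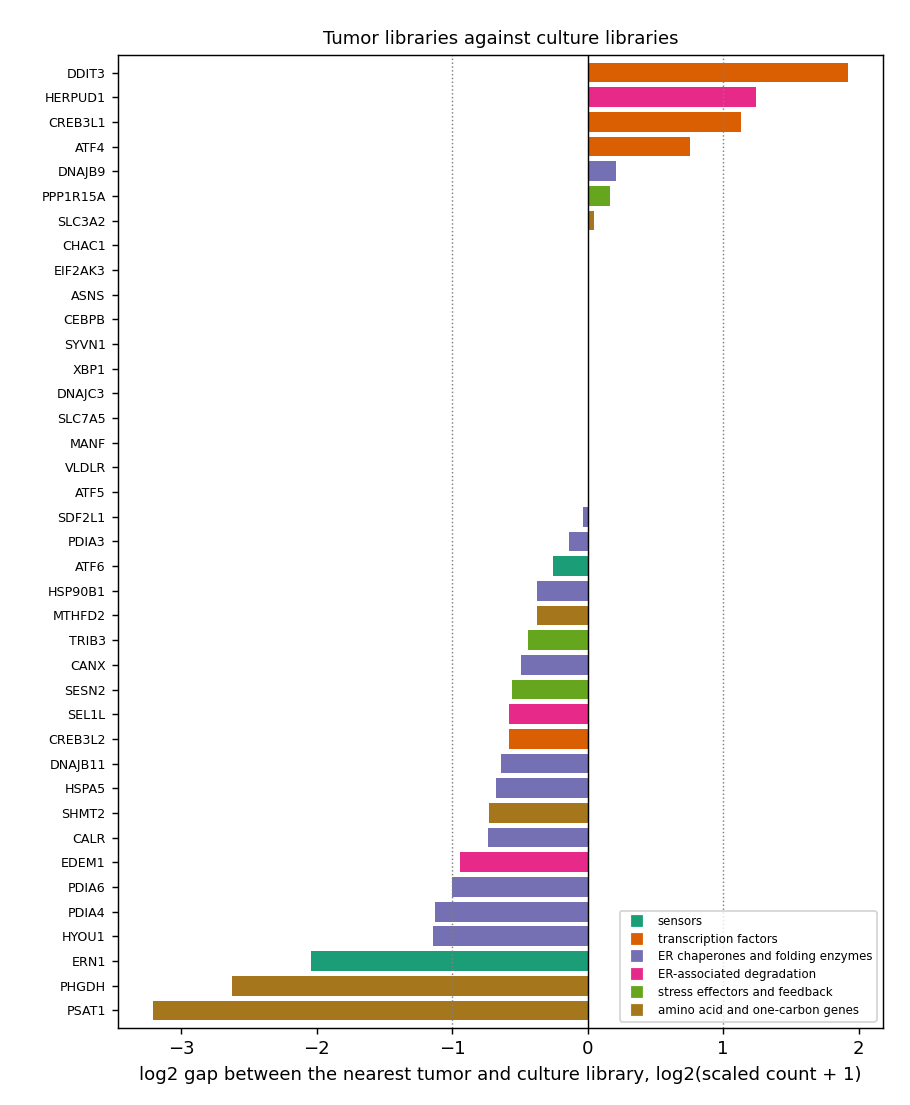
Log2 gap between the nearest tumor and culture library for each of the 39 genes on the log2(scaled count + 1) scale, bars coloured by role. Bars to the right mean both tumors above both cultures, bars to the left both below, a gene without a bar has overlapping groups, and dotted lines mark 2-fold. DDIT3, HERPUD1 and CREB3L1 pass 2-fold on the right, and 6 genes on the left.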

How the data were processed

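RNA of 4 A549 libraries was sequenced from TruSeq RNA libraries. Alignment to hg19 and counting are recorded only as tool names in the submitters' processing notes: Cuffdiff 2.2.1, TopHat2 2.0.13, SAMtools 1.0 and Bowtie2 2.2.3. No source used here gives the gene annotation or whether strand was used. The deposited table holds 1 signal value per gene symbol and library, headed as raw signal, which behaves as fragment counts divided by a library's scaling factor. Between 90.0% and 91.2% of values above 0 were whole multiples of 1 fragment (within 0.05). Deposited values were divided by 8.94, a constant taken from the mean library total, to give scaled counts. The floor of 3 fragments was 0.242 to 0.465 scaled counts.

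Pairwise comparisons used log2(scaled count + 1) over genes at 1 scaled count or more in at least 1 of the libraries compared, and a gene counts as past 2-fold on that scale. Tumors were set against cultures by the nearest pair of libraries. With 1 library per group, no statistical test between groups was made. Motifs were searched in RefSeq promoter windows. Computation used Python 3.11.15, NumPy 2.4.6, pandas 2.3.3 and SciPy 1.17.1. The alternatives were other pseudocounts, filters and scalings, and whole fragments alone. The 39 genes and the related lists were chosen with earlier results of these data known. All 39 are given, and related genes are named when past 2-fold, up to 4 per list, comparison and direction. Marker genes, HSPB1, PDIA3P1 and, between the tumors, CRYAB are named outside that rule.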

Additional observations from a re-analysis of the deposited data

How the results depend on the processing

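Every comparison rests on 1 library per group, so the spread between cultures, tumors or animals is unknown, and no paired analysis was possible because each group is 1 library. Depth limits PHGDH and CHAC1 between the tumors. The number of members past 2-fold lower in the acinar tumor was 1 in place of 2 with a pseudocount of 5, where PHGDH dropped out, and 1 with a filter at 5 scaled counts, which PHGDH does not pass. With a pseudocount of 5 the tumor and culture counts went from 3 to 2 higher (without CREB3L1) and from 6 to 5 lower (without PDIA6). Among members still measured, no other gene moved across 2-fold under the alternatives run. The members' medians moved by less than the counting error typical of a member. Of 117 ratios of single members, 11 moved by at least the half-width of their counting interval with equal totals. With pseudocounts of 5 and 0.1, 6 and 2 did. Directions of single members held under all alternatives but scaling to equal totals, where MANF between the cultures and XBP1 between the tumor and culture means changed sign. Over all genes, the counts past 2-fold higher and lower in the acinar tumor went from 277 and 357 to 478 and 692 with a pseudocount of 0.1, to 114 and 101 with 5, and to 192 and 203 with the filter at 5. In the mix culture they went from 92 and 234 to 192 and 522, to 33 and 73, and to 72 and 157. For tumors against cultures, a pseudocount of 5 gave 864 and 774 in place of 1408 and 1197.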
